A study of Mus musculus with 12 samples.

Results

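Axon guidance ligands and receptors of 11 families were followed in the neonatal mouse inner ear: semaphorins with their plexin and neuropilin receptors, ephrins with their Eph receptors, Slits with Robo receptors, and netrins with Dcc and the Unc5 receptors. Members were taken by gene symbol. The tables listed 68 of them among 29641 genes, and a member was tested in an organ where at least 3 of its 6 libraries reached 1 CPM, the unit of read counts scaled to a library's total. That filter kept 65 members in the cochlea and 63 in the vestibule, and 63 in both organs. The libraries hold RNA bound to HA-tagged ribosomes from the cochlea and the vestibule of newborn mice, aged P0 to P1, and each genotype had 3 libraries in each organ, 12 in total. Heterozygotes were Gfi1Cre/+;RiboTagHA/HA and mutants were Gfi1Cre/Cre;RiboTagHA/HA, so all animals carried the RiboTag allele on both chromosomes and Cre at the Gfi1 locus. Cre switches on the tag, and it was driven by Gfi1, which encodes a zinc finger repressor of transcription and is active in hair cells. Mutants had more Cre as well as no unmodified Gfi1, and effects of the one and the other cannot be told apart. Each fold change below answers how a member's level in the pull-down differed between mutants and heterozygotes of the same organ.

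Axon guidance proteins are cues and receptors that steer growing axons, and many of them also pattern epithelia and vessels. Secreted semaphorins of class 3 act through complexes of neuropilins and plexins, while membrane-bound semaphorins can bind plexins directly. Ephrins are anchored in the membrane and signal in both directions on contact with Eph receptors, Slits repel through Robo receptors, and netrins attract through Dcc and repel through Unc5 receptors. In the inner ear these families are known from the growth of spiral and vestibular ganglion neurites towards hair cells.

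The genotype check and the library depths were as follows. Gfi1 itself measured 165, 106 and 126 CPM in the cochlear heterozygotes and 75.1, 64.3 and 69.1 CPM in the mutants, and it was lower in the vestibular mutants too, at 198 to 236 CPM against 449.8 to 534 CPM; the labels do not say which part of Gfi1 the Cre allele replaces. Cochlear libraries held 7531518 to 9363796 reads and vestibular libraries 18951026 to 29370267, so that 1 read was worth 0.107 to 0.133 CPM and 0.0340 to 0.0528 CPM. The vestibular replicate 1 library of each genotype stood apart, with 0.684% and 0.729% of reads outside the listed genes against 0.119% to 0.127% in the other vestibular libraries. Cochlear and vestibular libraries were made with different kits, per the labels' protocols, so organ and kit cannot be told apart and levels were not compared between organs. Hair cell markers were present in both organs, and so were markers of ganglion neurons, mesenchyme, glia, endothelium and macrophages. Input RNA was not analysed here, so the share of each member's reads that came from hair cells was not tested.

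Most of the families were read well above the filter. In the cochlea 62 of the 65 tested members reached 1 CPM in all 6 libraries, and the other 3 were Efna3, Epha8 and Sema3g. In the vestibule it was 60 of 63, the exceptions being Efna3, Epha8 and Slit1. No member passed the filter through a single genotype. Robo3, Epha6 and Ntn5 fell short in both organs, and Epha10 and Dcc in the vestibule as well. Just inside and just outside the filter lay Epha8 and Epha6 in the cochlea, whose third-highest libraries had 1.04 and 0.875 CPM, and Efna3 and Dcc in the vestibule, with 1.23 and 0.778 CPM.

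Levels per kilobase of exon, which allow genes to be compared, put an Eph receptor first in the cochlea and a plexin first in the vestibule. In cochlear heterozygotes Epha7, a receptor for ephrin-A ligands, stood at 76.5 ± 3.82 CPM per kb (SD, n = 3), above Sema5b at 46.6 ± 1.51 CPM per kb. Epha4, which binds ephrins of both classes, stood at 34.3 ± 3.44 CPM per kb, and its ligand Efna5 at 30.7 ± 7.21 CPM per kb. The last 2 levels did not differ beyond their spread. In vestibular heterozygotes Plxnb2, a receptor for class 4 semaphorins, led at 89.4 ± 3.06 CPM per kb. It was followed by Plxnd1 at 41.1 ± 16.2, Sema6b at 37.6 ± 7.85 and Nrp2 at 36.1 ± 9.67 CPM per kb, 3 levels whose spreads overlapped. The plot of levels per kilobase gives the 16 highest members of each organ.

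**Figure D1:**
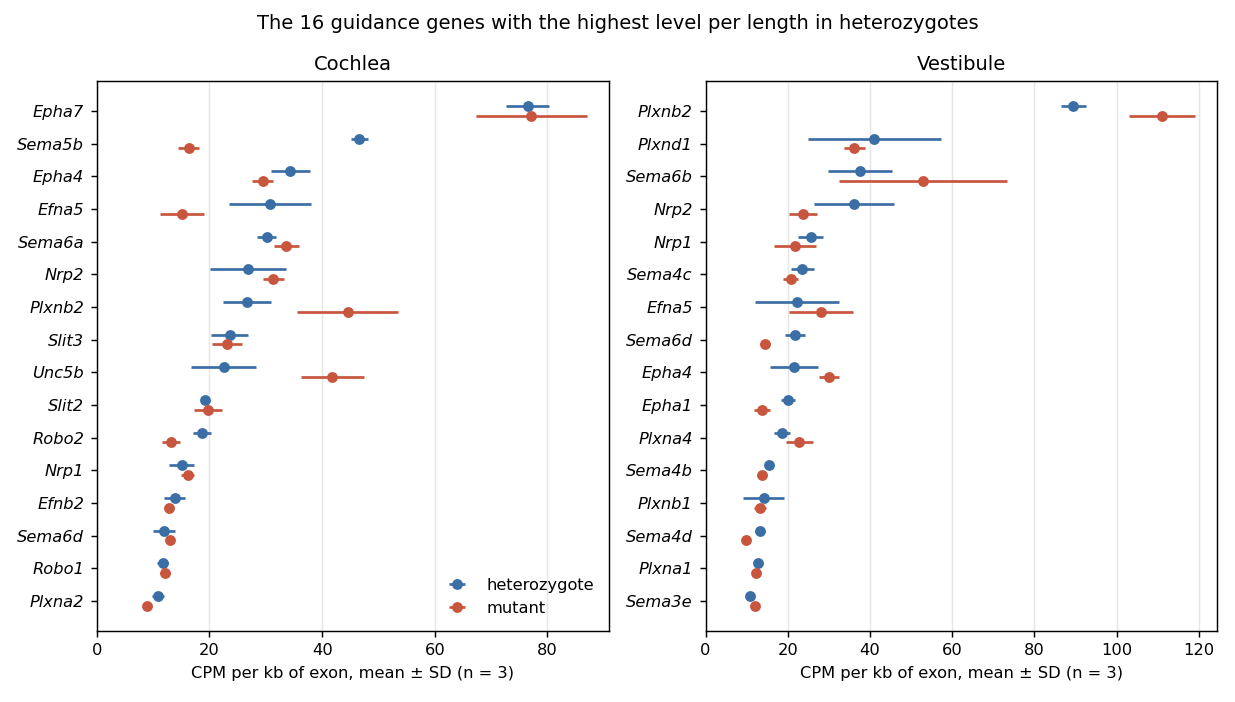
CPM per kilobase of exon, mean ± SD of 3 libraries, in heterozygotes (blue) and mutants (red) for the 16 members with the highest heterozygous level in each organ. In heterozygotes Epha7 and Sema5b lie highest in the cochlea, at 76.5 and 46.6 CPM per kb, and Plxnb2 in the vestibule, at 89.4 CPM per kb.

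In the cochlea 10 of the 65 members changed, beside a background of 4.41% of all 17985 tested genes. Sema3c, Sema3a, Plxnb2, Unc5b and Ntn4 rose and Sema5b, Sema3e, Efna5, Robo2 and Unc5a fell, which is 5 in each direction beside 1.9% of all genes higher and 2.52% lower. In the vestibule 3 of the 63 members changed, beside 3.5% of 15595 genes. All 3 were higher in mutants, beside 2.41% of genes higher: Sema3a, Robo1 and Epha3. The unadjusted p was under 0.05 for 12 members in the cochlea and 25 in the vestibule. The share of all genes under that level was not taken, so these counts have no background to be read against. The median log2 fold change of the members was 0.05 in the cochlea, equal to that of all genes, and -0.18 in the vestibule, where all genes had -0.06. Calls were made at a Benjamini-Hochberg adjusted p under 0.05 over all tested genes with limma on log2(CPM + 1), the scale of every fold change given here.

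**Figure D2:**
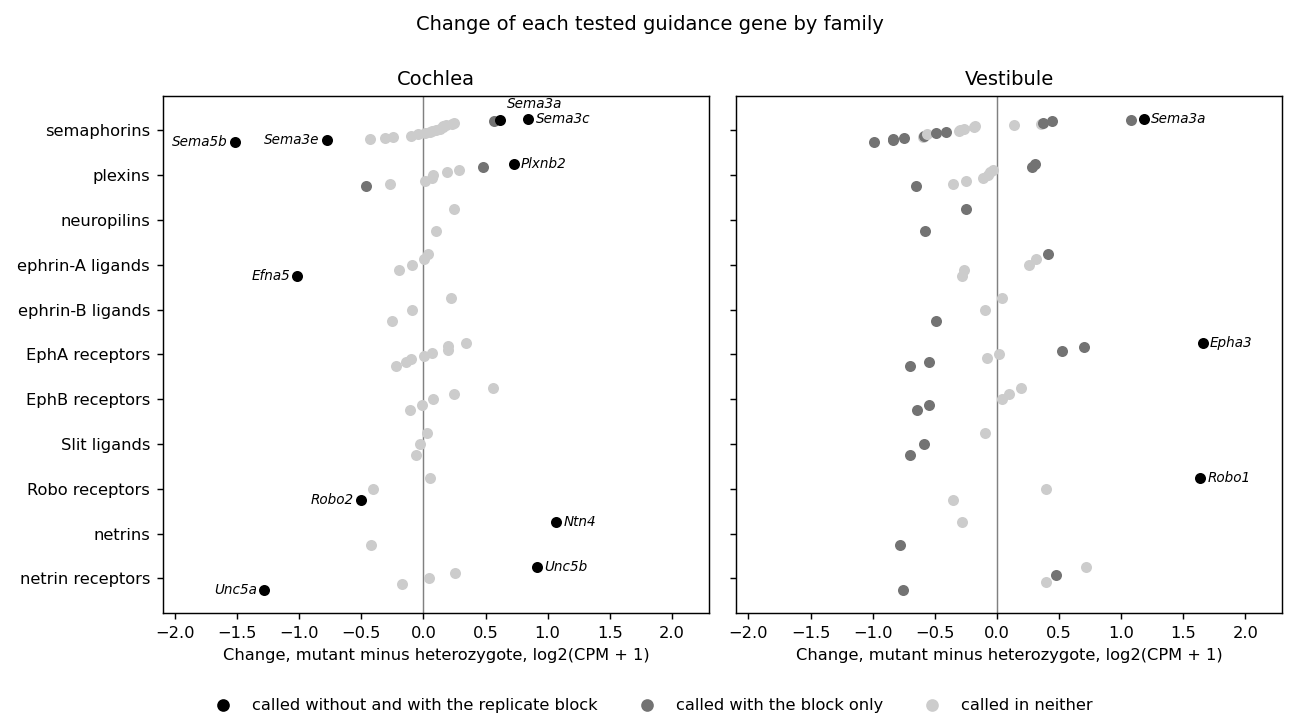
Change of each tested member from heterozygotes to mutants, in log2(CPM + 1), by family and organ; black points passed the adjusted p threshold of 0.05 and are named, dark grey points passed with the replicate block only, and light grey points in neither fit. The 10 cochlear calls run from -1.52 for Sema5b to 1.07 for Ntn4, and the 3 vestibular calls from 1.18 to 1.66.

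The vestibular count depended on whether libraries with the same replicate number were treated as pairs. With the replicate number as a block, 31 of the 63 vestibular members passed, beside 23.3% of all genes. Of these, 12 were higher and 19 lower, where 10.5% and 12.8% of all genes were. The 19 lower ones spanned 9 families: the secreted semaphorins Sema3b, Sema3c, Sema3d and Sema3f, the membrane semaphorins Sema4d, Sema5a and Sema6d, Plxna3, both neuropilins, Efnb3, Epha1, Epha7, Ephb4, Ephb6, Slit2, Slit3, Ntn1 and Unc5c. The 12 higher ones were Sema3a, Sema6a, Sema6b, Sema7a, Plxna4, Plxnb2, Efna5, Epha2, Epha3, Epha4, Robo1 and Unc5b. Mutant and heterozygous libraries did not overlap for 13 of 65 members in the cochlea, beside 17.5% of all genes, and for 29 of 63 in the vestibule, beside 22.3%. Of those 29, 11 were higher and 18 lower, beside 10.7% and 11.6%. In the cochlea the block added Plxna1, Sema4f and Plxna3 for 13 members, beside 8.52% of all genes. Without both vestibular replicate 1 libraries 10 members passed, beside 5.53% of genes. Of these 10, Sema3a, Robo1 and Epha3 were higher, beside 3.41%, and 7 were lower, beside 2.12%: Epha1, Epha7, Ephb4, Ntn1, Plxna3, Sema6d and Slit2.

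Several cell type markers moved along with these vestibular members. The summed level of 12 mesenchyme markers was 2015 to 2597 CPM in the vestibular heterozygotes and 1079 to 1492 CPM in the mutants. Schwann and satellite glia markers summed to 395 to 452 CPM and 246 to 278 CPM, and endothelial markers to 118 to 179.5 CPM and 68.2 to 114 CPM. In the opposite direction, the sum over ganglion neuron markers went from between 1554 and 1816 CPM to between 2496 and 2573 CPM. Of the single markers, 2 of 12 mesenchyme, 1 of 10 glial and 0 of 10 endothelial ones were called lower. Of all vestibular genes 3.5% were called in either direction and 2.41% were called higher, so the share called lower was smaller than either. With the replicate block 10, 8 and 6 of these markers were lower, where 12.8% of all vestibular genes were. Without the block 3 of 12 neuronal markers were higher, beside 2.41% of all genes, and 1 was lower. With the block 5 were higher, beside 10.5%, and 2 were lower, beside 12.8%. No defining marker of these lists was at 0 in all libraries. Hair cell markers, among them Gfi1 itself, summed to 10578 to 11464 CPM and 11605 to 12281 CPM. The part of any of these cell types in the lower guidance transcripts was not tested. In such pull-down libraries fewer cells of a type, less RNA per cell and less of that RNA in the pull-down cannot be told apart.

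In the cochlea other marker lists moved. The sum over hair cell markers lay between 4941 and 5813 CPM in heterozygotes and between 3291 and 3863 CPM in mutants. Of 16 single markers 11 fell, beside 2.52% of all genes. Gfi1 itself is in this list and among the 11, and the mutants lack its unmodified form. For ganglion neuron markers the sum was 1732 to 1848 CPM and 2504 to 2598 CPM, and 5 of 14 rose, beside 1.9%. Mesenchyme, endothelial and glial sums overlapped between the genotypes, at 1403 to 1575 and 1494 to 1618 CPM for mesenchyme. Cochlear macrophage sums also overlapped, spanning 2693 to 3357 (heterozygotes) and 3239 to 3949 CPM (mutants). Of 15 macrophage markers Fcgr3 and Lyz2 were called higher there, beside 1.9%. Vestibular macrophage sums were larger and overlapped too, spanning 8202 to 10521 (heterozygotes) and 7835 to 9096 CPM (mutants). Of those 15 markers 0 were called, and 4 were lower with the replicate block, beside 12.8% of vestibular genes. Granulocyte markers were lower in the mutants of both organs. They summed to 29.7 to 53.8 CPM in cochlear heterozygotes and 4.52 to 10.1 CPM in mutants, with 3 of 4 tested called lower. In the vestibule they summed to 78.3 to 136 CPM and 15.8 to 21.2 CPM, with 5 of 7 called lower. Beside these counts stand 2.52% of cochlear genes lower and 3.5% of vestibular genes called in either direction, with 2.41% of vestibular genes called higher. Vestibular melanocyte markers summed to 57.2 to 72.5 CPM and 30.7 to 49.5 CPM. The part of any of these cells in the guidance changes was not tested.

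**Figure D3:**
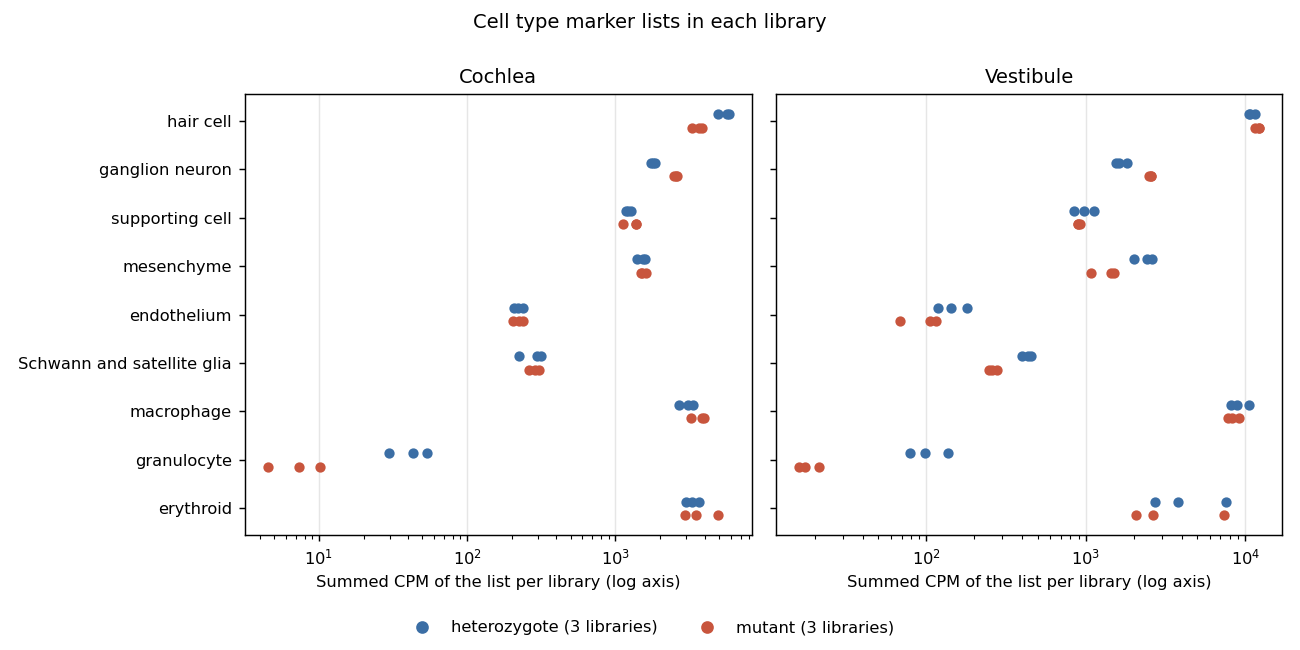
Summed CPM of the genes of 9 cell type marker lists in each library, on a log axis, with 3 heterozygous and 3 mutant libraries per organ. Mesenchyme and glial sums are lower in all vestibular mutants than in any vestibular heterozygote, and ganglion neuron sums are higher in the mutants of both organs.

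Among the semaphorins, Sema5b had the largest cochlear change of any member. It encodes a transmembrane semaphorin with thrombospondin repeats that repels growing axons, and lies at chr16:35541145-35664732 on the plus strand. Its level was 339, 318 and 333 CPM in the cochlear heterozygotes and 109, 106 and 130.4 CPM in the mutants. Every mutant library lay far below the lowest heterozygous one. The log2 fold change was -1.52 (SE 0.12, adjusted p = 7.57e-06), and it passed without any single library. In the vestibule Sema5b was a minor transcript, at 10.9, 12.9 and 19.2 CPM against 9.39, 10.2 and 7.99 CPM. Those groups did not overlap, but the vestibular difference of -0.56 (SE 0.24) missed the threshold, at adjusted p = 0.30.

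Sema3a, a secreted repellent that signals through Nrp1 and A-type plexins, was the sole member called in both organs. The gene spans chr5:13125414-13602565 on the plus strand. Cochlear levels were 121, 96.8 and 98.3 CPM in heterozygotes and 161, 168 and 153 CPM in mutants. Vestibular levels were 70.1, 91.6 and 95.1 CPM and 169, 223 and 193 CPM. In both organs every mutant library was above every heterozygous one. The fold change was 0.61 (SE 0.13, adjusted p = 0.0114) in the cochlea and 1.18 (SE 0.16, adjusted p = 0.00663) in the vestibule. The vestibular call held without any single library, while the cochlear one was lost without heterozygote replicate 2, mutant replicate 1 or mutant replicate 2, with adjusted p up to 0.0645.

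Sema3c, another secreted class 3 semaphorin, behaved differently in the 2 organs. It lies at chr5:17574281-17730268 on the plus strand. In the cochlea it measured 35.4, 38.6 and 31.8 CPM in heterozygotes and 63.0, 65.2 and 63.8 CPM in mutants, a tight rise of 0.84 (SE 0.14, adjusted p = 0.00187) that passed without any single library. In the vestibule the mutants were the lower group. There it measured 10.8, 19.0 and 12.4 CPM against 4.85, 7.60 and 7.08 CPM, a difference of -0.99 (SE 0.26) with adjusted p = 0.0963, or 0.00104 with the replicate block.

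Sema3e differs from other class 3 semaphorins in binding Plxnd1 without a neuropilin. It lies at chr5:14025276-14256689 on the plus strand and fell in the cochlea, from 39.0, 61.7 and 52.6 CPM to 27.7, 34.3 and 25.4 CPM. The fold change was -0.78 (SE 0.18, adjusted p = 0.0267), and the call was lost when heterozygote replicate 2, mutant replicate 1 or mutant replicate 3 was left out, with adjusted p reaching 0.147, and when both replicate 3 libraries were, at 0.122. Its receptor Plxnd1 overlapped between genotypes in the cochlea, at 35.6, 40.2 and 47.7 CPM against 37.0, 41.0 and 53.3 CPM. Vestibular Sema3e lay between 91.7 and 109 CPM in heterozygotes and between 111 and 113 CPM in mutants, with adjusted p = 0.637.

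Sema7a is a semaphorin held to the membrane by a lipid anchor, known to bind Plxnc1 and integrins. It lies at chr9:57940112-57962865 on the plus strand. The 3 cochlear heterozygotes had 10.5, 21.6 and 25.3 CPM and the mutants 9.5, 16.1 and 14.7 CPM, groups that overlapped (-0.43, SE 0.29, adjusted p = 0.680). Vestibular libraries had 26.3, 18.8 and 30.0 CPM in heterozygotes and 84.2, 38.2 and 46.7 CPM in mutants. All 3 vestibular mutants were above the heterozygotes, and replicate 1, one of the libraries that stood apart, was the highest. The vestibular difference of 1.08 (SE 0.30) missed the threshold at adjusted p = 0.107 and passed with the replicate block, at 0.000176. Without both replicate 1 libraries it was 0.80, with adjusted p = 0.0946. Plxnc1 measured 31.8, 30.0 and 33.4 CPM against 22.3, 29.6 and 28.3 CPM in the same libraries, with adjusted p = 0.522.

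The other semaphorins did not pass in either organ. Of the 20 tested in each organ, 16 in the cochlea and 19 in the vestibule missed the threshold. In the vestibule 14 of the 20 had a negative difference, with a median of -0.30, while in the cochlea 13 of 20 were positive and the median was 0.08. All tested genes had a median of -0.06 in the vestibule and 0.05 in the cochlea, and their shares by sign were not taken. Sema6d, a transmembrane ligand of Plxna1, came nearest in the vestibule. It measured 223, 208 and 258 CPM in heterozygotes and 141, 151 and 165 CPM in mutants, a difference of -0.58 (SE 0.13) with adjusted p = 0.0516. It passed under quantile normalization, with the replicate block (9.82e-05) and without both replicate 1 libraries (0.0489).

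Of the semaphorin receptors, Plxnb2 was the one called, and in the cochlea. This plexin gene lies at chr15:89155549-89180788 on the minus strand. Cochlear levels were 169, 226 and 223 CPM in heterozygotes and 272, 411 and 348 CPM in mutants, with no overlap (0.73, SE 0.16, adjusted p = 0.0203). The call was lost without heterozygote replicate 1, mutant replicate 2 or mutant replicate 3, with adjusted p up to 0.117. In the vestibule it measured 718, 678 and 675 CPM against 914, 866 and 792 CPM. Those groups were also apart, but the difference of 0.31 (SE 0.12) had adjusted p = 0.262, or 0.00918 with the block.

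The A-type plexins, which form the signalling subunit of class 3 semaphorin receptors, had no call in either organ. Plxna3 measured 52.1, 58.1 and 68.4 CPM in vestibular heterozygotes and 35.2, 36.5 and 40.2 CPM in mutants. That difference of -0.65 (SE 0.15) had adjusted p = 0.0545, and it passed with the block (0.000306), by edgeR (0.0452), under quantile normalization (0.0469) and without both replicate 1 libraries (0.0269). In the cochlea Plxna3 pointed the other way, at 12.4, 21.4 and 31.9 CPM against 20.1, 33.0 and 36.1 CPM, with overlapping groups and adjusted p = 0.618, or 0.0496 with the block. Cochlear Plxna1 measured 68.7, 89.9 and 109.7 CPM against 53.9, 63.4 and 74.6 CPM (adjusted p = 0.236, or 0.00477 with the block). Its level is uncertain, as the annotated gene Gm26811 covers 10.7% of its exon bases.

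The neuropilins, the ligand-binding subunits for class 3 semaphorins, were abundant and had no call. Nrp2 measured 399, 554 and 331 CPM in vestibular heterozygotes and 238, 319 and 287 CPM in mutants. The mutants all lay lower, by -0.58 (SE 0.20), with adjusted p = 0.201 and 0.000897 with the block. In the cochlea Nrp2 groups overlapped, at 410.4, 280.3 and 264 CPM against 368, 351 and 395 CPM. Nrp1 differed by 0.10 in the cochlea and by -0.25 in the vestibule, where the block gave adjusted p = 0.0387.

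**Figure D4:**
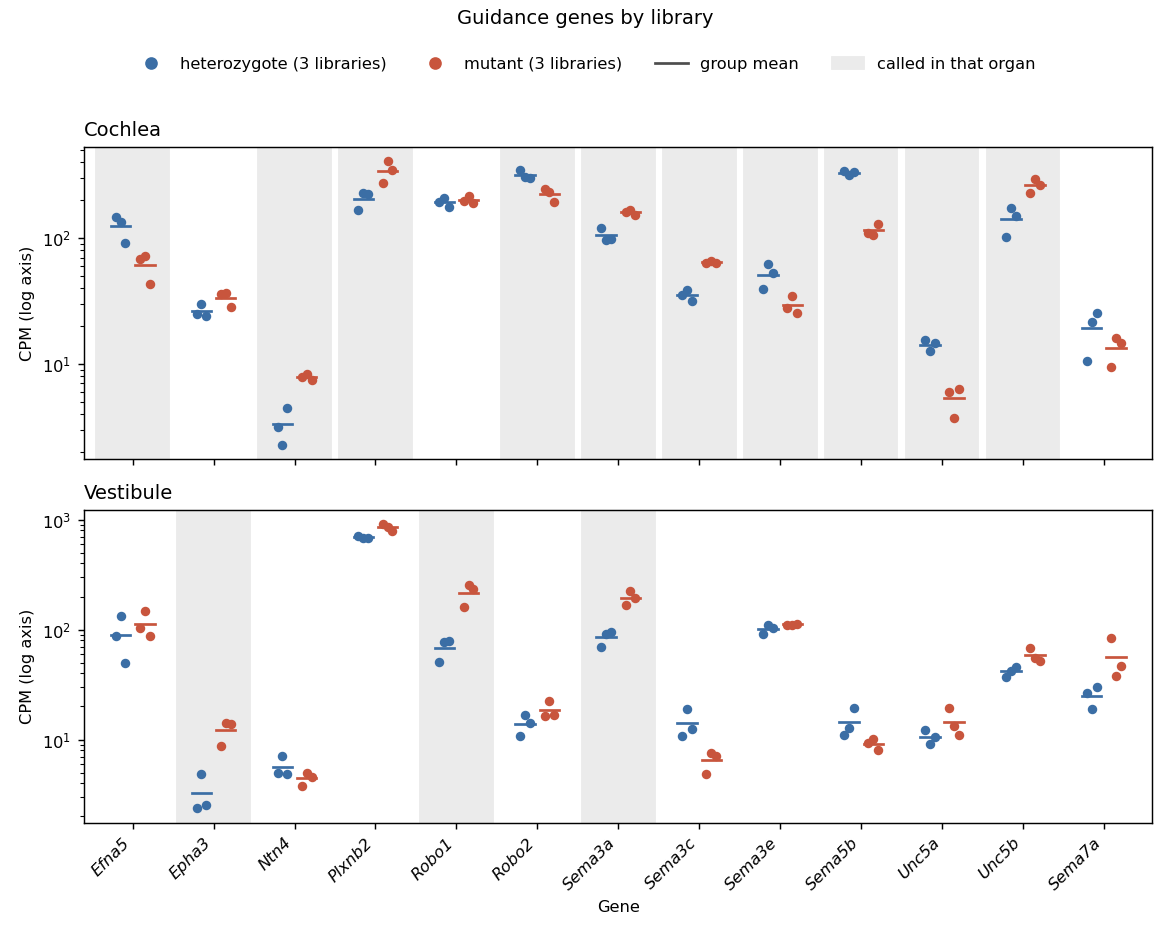
CPM in each of the 6 libraries of an organ, on a log axis, for the members that changed and for Sema7a; blue points are heterozygotes, red points mutants, bars group means, and shading marks a call in that organ. The 10 members called in the cochlea and the 3 called in the vestibule show no overlap between genotypes, whereas cochlear Sema7a does.

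Among the ephrins, Efna5 fell in the cochlea. It encodes a lipid-anchored ligand of EphA receptors and lies at chr17:62604184-62881317 on the minus strand. Cochlear levels were 147, 134 and 91.3 CPM in heterozygotes and 68.5, 71.5 and 43.1 CPM in mutants. Replicate 3 was the lowest library in both genotypes, and no mutant reached the lowest heterozygote. The fold change was -1.02 (SE 0.21, adjusted p = 0.0102), and the call was lost without heterozygote replicate 1 or 2 (adjusted p up to 0.0709). In the vestibule the groups overlapped, at 87.2, 133 and 49.3 CPM against 104, 148 and 87.4 CPM. There the difference was 0.41 (SE 0.34, adjusted p = 0.639), and it passed with the replicate block at 0.0170.

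The other ephrins stayed without a call. Efna1, Efna2, Efna3 and Efna4 had cochlear means of 1.64 to 9.80 CPM in heterozygotes, where few reads limit what can be seen. The exons of Efna3 and Efna4 share 14.1% and 10.5% of their bases with other annotated genes, so their levels are uncertain. Of the transmembrane ephrin-B ligands Efnb3 had the smallest p, with 22.5, 28.3 and 22.6 CPM in vestibular heterozygotes and 15.2, 21.4 and 15.3 CPM in mutants. Its difference was -0.49 (SE 0.19), with adjusted p = 0.269 and 0.0159 with the block. Efnb2 measured 84.3 to 109 CPM in cochlear heterozygotes and 86.2 to 90.2 CPM in mutants.

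Of the EphA receptors, Epha3 rose in the vestibule from a low level. The gene lies at chr16:63543534-63864175 on the minus strand and its receptor binds Efna5. Its levels were 2.37, 4.91 and 2.52 CPM in vestibular heterozygotes and 8.76, 14.1 and 13.9 CPM in mutants, read from 53 to 339 reads a library. This was 1.66 on the log2 scale (SE 0.30, adjusted p = 0.0214), the largest vestibular change of any tested member. The call was lost without heterozygote replicate 3, mutant replicate 2 or mutant replicate 3, with adjusted p up to 0.108. Cochlear Epha3 measured 24.9, 30.1 and 23.8 CPM against 36.2, 36.4 and 28.1 CPM, overlapping groups with adjusted p = 0.458.

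The most abundant EphA receptors had overlapping groups in the cochlea. Epha7 measured 717, 793 and 758 CPM in cochlear heterozygotes and 864, 671 and 751 CPM in mutants, a difference of 0.00 (SE 0.14). Epha4 measured 245, 289.6 and 296 CPM against 237, 252 and 222 CPM, with adjusted p = 0.565. In the vestibule neither was called, and with the block both passed, in opposite directions. Vestibular Epha7 was at 25.5, 52.5 and 47.7 CPM against 15.7, 29.6 and 30.8 CPM (-0.70, adjusted p = 0.359, block 0.000523). Replicate 1 was the lowest library of both genotypes, and without both replicate 1 libraries adjusted p was 0.0227. Vestibular Epha4 was at 119, 209 and 190.5 CPM against 221, 246 and 259 CPM (0.52, adjusted p = 0.268, block 0.00225).

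Epha6, an EphA receptor below the filter, had 0, 0 and 0.204 CPM in vestibular heterozygotes and 0.844, 1.15 and 0.737 CPM in mutants, which is 0, 0 and 6 reads against 16, 27 and 18 reads. With no filter on low values its adjusted p was 0.0410 in the vestibule. In the cochlea it had 0.254, 0.531 and 0.427 CPM against 0.875, 2.06 and 1.85 CPM, with adjusted p = 0.118 in the unfiltered fit. It was named after its values were seen.

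The EphB receptors had no call. Ephb4, the receptor for ephrin-B2, had the smallest p, with 25.1, 32.4 and 34.5 CPM in vestibular heterozygotes and 18.6, 17.6 and 21.2 CPM in mutants. Its groups did not overlap, at -0.64 (SE 0.18) with adjusted p = 0.104, or 0.00276 with the block and 0.0381 without both replicate 1 libraries. In the cochlea the 5 EphB receptors differed by -0.11 to 0.56.

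The Slit ligands also had no call. Slit3 measured 30.8, 34.4 and 52.3 CPM in vestibular heterozygotes and 17.5, 26.4 and 26.5 CPM in mutants, -0.70 (SE 0.25) with adjusted p = 0.202 and 0.00153 with the block. Vestibular Slit2 overlapped between genotypes, at 47.0, 85.2 and 84.4 CPM against 30.1, 60.8 and 53.1 CPM (adjusted p = 0.412, block 0.000461). It was lowest in replicate 1 of both genotypes. Cochlear Slit2, at 496, 466 and 504 CPM against 575, 450.1 and 481 CPM, differed by 0.03 (SE 0.13).

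Of the Robo receptors, Robo1 was called in the vestibule and Robo2 in the cochlea. Robo1 lies at chr16:72308306-73046095 on the plus strand and rose in the vestibule, from 51.1, 76.6 and 78.4 CPM to 159.7, 255 and 234 CPM. The lowest mutant stood above the highest heterozygote, and replicate 1 was the lowest library in both genotypes. The fold change was 1.64 (SE 0.23, adjusted p = 0.00663), and it passed without any single library. In the cochlea Robo1 measured 195, 209 and 176 CPM in heterozygotes and 196, 215 and 189 CPM in mutants. These overlapping groups differed by 0.05 (SE 0.12, adjusted p = 0.961), and this near-zero value changed sign under some alternatives.

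Robo2, at chr16:73891839-74411825 on the minus strand, fell in the cochlea by the smallest margin of the 10. Its levels were 349, 305 and 299 CPM in heterozygotes and 246, 234 and 194 CPM in mutants, without overlap. This amounted to -0.50 (SE 0.13, adjusted p = 0.0453). The call rested on most single libraries, as it was lost on leaving out any library but heterozygote replicate 3, with adjusted p as high as 0.229, while edgeR on the recovered reads gave 0.0546. Vestibular Robo2 measured 10.8, 16.6 and 14.2 CPM against 16.4, 22.3 and 16.6 CPM (adjusted p = 0.435). The difference between its cochlear and vestibular changes was -0.90 and missed the threshold at adjusted p = 0.0581, passing with the block at 0.000460. Robo4, known from endothelium, had 3.56 to 8.76 CPM in cochlear heterozygotes and 3.62 to 4.17 CPM in mutants.

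Of the netrins, Ntn4 rose in the cochlea. Ntn4 is a secreted protein of basement membranes that binds laminin, and its gene lies at chr10:93640681-93747207 on the plus strand. It measured 3.18, 2.26 and 4.49 CPM in cochlear heterozygotes and 7.87, 8.26 and 7.41 CPM in mutants, from 17 to 64 reads a library. Its rise of 1.07 (SE 0.26, adjusted p = 0.0278) was called with all libraries or without heterozygote replicate 3. Leaving out any other library took adjusted p over the threshold, to 0.114 at the highest. Ntn1, the best known chemoattractant of the family, measured 47.1, 66.8 and 63.3 CPM in vestibular heterozygotes and 26.7, 39.5 and 36.1 CPM in mutants. These groups did not overlap, at -0.78 (SE 0.20) with adjusted p = 0.0832, and passed with the block (6.56e-05) and without both replicate 1 libraries (0.0126).

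The netrin receptors of the Unc5 family changed in opposite directions in the cochlea. Unc5b lies at chr10:60762593-60831581 on the minus strand and rose from 101, 172 and 149 CPM to 226, 297 and 262 CPM (0.91, SE 0.18, adjusted p = 0.00760). The call was lost only without mutant replicate 2, at 0.0549. Vestibular Unc5b measured 37.2, 42.2 and 45.5 CPM against 68.7, 54.9 and 52.2 CPM, groups that did not overlap (0.48, adjusted p = 0.171, block 0.0118). The difference between its cochlear and vestibular changes was 0.44 and missed the threshold, at adjusted p = 0.519. Unc5a lies at chr13:54949411-55006018 on the plus strand and fell from 15.5, 12.6 and 14.6 CPM to 6.0, 3.74 and 6.37 CPM (-1.28, SE 0.24, adjusted p = 0.00511). That call passed without any single library, and every mutant had less than the lowest heterozygote. Vestibular Unc5a overlapped, at 12.2, 9.06 and 10.7 CPM against 19.4, 13.3 and 11.1 CPM. Dcc, the receptor for attraction, overlapped in the cochlea, at 17.4, 22.7 and 17.9 CPM against 22.1, 22.1 and 16.1 CPM.

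Promoter sequences are shown for the 3 members that rose together in the vestibule and for Efna5, which fell in the cochlea and whose promoter holds a GFI1 core. Each is the 250 bases before a RefSeq start site, and none overlaps an annotated exon. The sequences come from RefSeq on GRCm38.p6 and are written 5′ to 3′ on the gene's strand. Capitals mark matches on either strand to CAGNTG, an E-box of the kind bound by basic helix-loop-helix factors such as ATOH1, or to AATCAC, the core of the GFI1 motif. The 2 motifs share no overlapping match in these windows. The first 2 start sites lie within the gene as GENCODE M21 draws it.
Sema3a, chr5:13396534-13396783, plus strand, inside the gene span: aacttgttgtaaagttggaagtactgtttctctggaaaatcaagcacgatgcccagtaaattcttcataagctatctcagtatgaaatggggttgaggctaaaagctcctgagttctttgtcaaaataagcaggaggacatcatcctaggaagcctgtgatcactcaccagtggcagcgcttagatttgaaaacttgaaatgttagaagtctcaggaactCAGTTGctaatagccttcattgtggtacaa
Robo1, chr16:72662899-72663148, plus strand, inside the gene span: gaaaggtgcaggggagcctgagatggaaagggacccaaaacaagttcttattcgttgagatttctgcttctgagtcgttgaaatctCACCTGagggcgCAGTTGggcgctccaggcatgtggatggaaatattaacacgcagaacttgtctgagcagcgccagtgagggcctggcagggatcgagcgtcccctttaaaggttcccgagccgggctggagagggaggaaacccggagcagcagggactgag
Epha3, chr16:63864176-63864425, minus strand, directly upstream of the gene: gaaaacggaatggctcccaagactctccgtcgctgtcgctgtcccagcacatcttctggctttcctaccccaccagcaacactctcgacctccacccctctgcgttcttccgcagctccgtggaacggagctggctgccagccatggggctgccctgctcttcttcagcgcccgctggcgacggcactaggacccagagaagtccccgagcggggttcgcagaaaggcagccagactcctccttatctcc
Efna5, chr17:62881318-62881567, minus strand, directly upstream of the gene: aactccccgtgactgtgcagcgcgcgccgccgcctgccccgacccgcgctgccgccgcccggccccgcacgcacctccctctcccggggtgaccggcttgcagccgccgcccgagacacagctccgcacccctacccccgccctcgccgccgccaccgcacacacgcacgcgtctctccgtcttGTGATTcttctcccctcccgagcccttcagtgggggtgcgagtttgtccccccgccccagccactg

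The Sema3a window held 1 E-box, 30 bases before the start, and the Robo1 window held 2. The Epha3 window held neither motif, and the Efna5 window held 1 GFI1 core, 66 bases before the start and on the other strand. RefSeq promoters matched 55 of the 65 tested members and all 12 called ones. Over windows of 300 bases, from 250 before to 50 after the start, AATCAC was found in 6 of 71 member promoters (8.45%) and in 10.4% of all 32851 promoters. CAGNTG was found in 26 of the 71 (36.6%) and in 51.4% of all. Among the 12 called genes, Efna5 and Robo2 held the GFI1 core and Plxnb2, Robo1, Robo2, Sema3a and Sema3c an E-box. Here a gene with several promoters counted when any of them matched, whereas the shares above are per promoter. For Robo2 the core lay only in the window at chr16:75092771-75093020, outside the gene span given above. For Plxnb2 the E-box lay only in the window inside its gene span. A match describes letters only, and binding was not measured.

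The difference between organs was tested directly, as the cochlear change minus the vestibular change in a single fit of the 12 libraries. Of the 63 members tested in both organs 5 passed, beside 3.14% of 14674 genes: Sema3c and Ntn4 with the higher cochlear change, beside 0.709%, and Robo1, Unc5a and Sema3e with the higher vestibular change, beside 2.43%. With the replicate block 28 members passed, beside 13.3% of genes. Sema3c differed by 1.83 (SE 0.29, adjusted p = 0.00215), Unc5a by -1.68 (SE 0.33, adjusted p = 0.0110) and Robo1 by -1.59 (SE 0.26, adjusted p = 0.00287), each without loss when any single library was left out. Ntn4, at 1.35 (SE 0.33, adjusted p = 0.0403), and Sema3e, at -0.92 (SE 0.23, adjusted p = 0.0451), kept their calls in 2 of 12 such fits. Sema5b, whose fall was called in the cochlea alone, differed between organs by -0.96 with adjusted p = 0.0535, which misses the threshold. It passed with the block (0.00682), by edgeR (0.0361) and under median-of-ratios (0.0193) or quantile scaling (0.0176), and missed without both cochlear replicate 3 libraries (0.126) or both vestibular replicate 1 libraries (0.113). Efna5 differed by -1.42 and Sema7a by -1.51, with adjusted p = 0.114 for each, and both passed with the block, at 2.13e-05 and 0.000717.

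**Figure D5:**
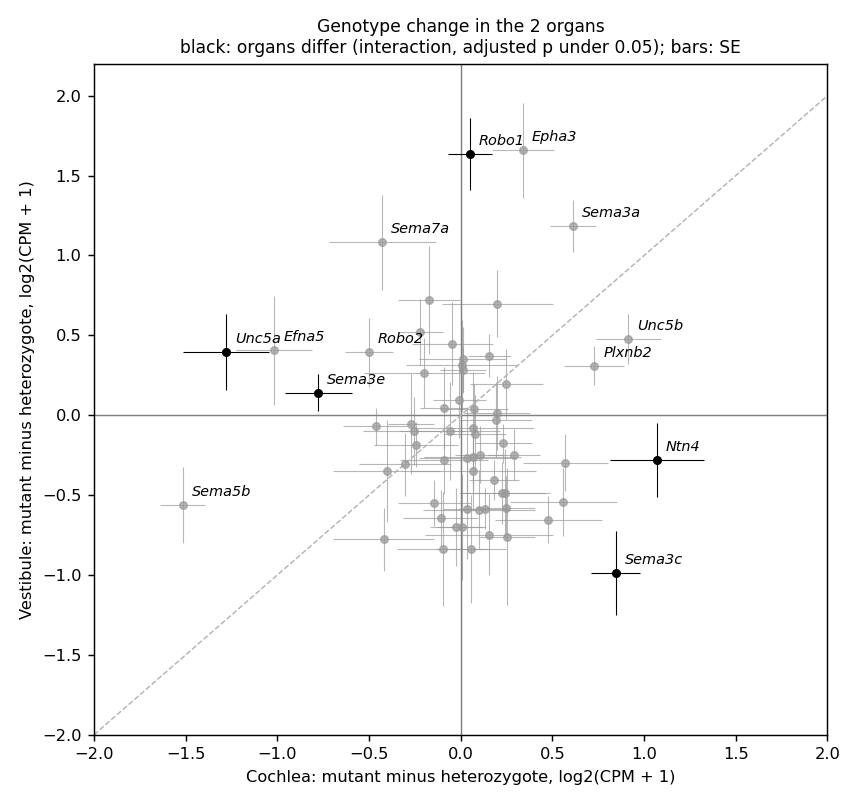
Cochlear change against vestibular change for the 63 members tested in both organs, both as differences from heterozygotes in log2(CPM + 1); bars are standard errors, named points passed in an organ or in the difference between organs or are Sema7a, and black points passed in the difference. Sema3a lies above 0 on both axes, at 0.61 and 1.18, while Sema3c lies at 0.84 and -0.99.

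Known partners of these receptors were read from 4 lists. Beside them stand the shares over all genes, 1.9% higher and 2.52% lower in the cochlea and 2.41% higher in the vestibule. Semaphorin partners had 2 of 25 tested genes higher and 1 lower in the cochlea, and 2 of 26 higher in the vestibule. Ephrin partners had 1 of 24 lower and 1 of 25 higher, and Slit-Robo and netrin partners 2 of 29 higher and 1 lower, then 5 of 29 higher. Shared cytoskeletal effectors had 3 of 20 higher and 1 lower in the cochlea and 0 of 20 in the vestibule by limma. Of the vestibular ones 0 passed by edgeR, 5 passed with the block and 4 had an unadjusted p under 0.05. For the unadjusted p no share over all genes was taken. Over the 4 lists the block raised the cochlear calls from 11 to 20 of 98, and the vestibular calls from 8 to 39 of 100. Over all genes it raised them from 4.41% to 8.52% and from 3.5% to 23.3%.

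Nell2, a secreted ligand of ROBO3 that repels axons, rose in both organs. It went from 4.57, 4.25 and 2.78 CPM to 14.9, 17.8 and 20.4 CPM in the cochlea (1.95, SE 0.24, adjusted p = 0.000203). Vestibular Nell2 rose from 31.2, 30.7 and 25.9 CPM to 107, 95.2 and 78.1 CPM (1.63, SE 0.16, adjusted p = 0.00153). Robo3 itself had no more than 5 reads in any library. Neo1, a receptor for netrins and repulsive guidance molecules, rose in the cochlea from 374, 369.6 and 411 CPM to 529.8, 699 and 622 CPM (0.67, adjusted p = 0.00884). In the vestibule it measured 101, 146 and 145 CPM against 171, 218 and 218 CPM, groups that did not overlap (adjusted p = 0.112, block 4.68e-05). In the vestibule Flrt3, a Robo1 co-receptor, rose by 1.18 (adjusted p = 0.00870), Draxin, which binds netrin-1 and Dcc, by 1.22 (adjusted p = 0.0104) and Dscam, a netrin receptor, by 1.16 (adjusted p = 0.0250). Flrt3, Draxin and Dscam kept their calls in 3, 4 and 1 of the 6 fits that leave out a single library. Their adjusted p there reached 0.0543, 0.0579 and 0.101. Cochlear Dscam differed by 0.72 (adjusted p = 0.128, block 0.0148).

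Among semaphorin partners the adhesion molecules moved in different ways. L1cam, a component of the Sema3a receptor complex, rose in the cochlea from 7.88, 20.0 and 21.4 CPM to 35.5, 76.7 and 47.7 CPM (1.68, SE 0.33, adjusted p = 0.00789), a call lost without mutant replicate 2, at 0.0631. Vestibular L1cam was low and its mutants lay lower, at 2.72, 5.45 and 4.73 CPM against 1.95, 2.34 and 1.84 CPM (-0.77, adjusted p = 0.209, block 0.0271). Its relative Nrcam fell in the cochlea, from 344, 364 and 358 CPM to 224, 289 and 249 CPM (-0.49, adjusted p = 0.0442), a call kept in 1 of 6 fits without a single library. In the vestibule Nrcam rose, from 93.9, 101 and 94.6 CPM to 164, 176 and 164 CPM (0.79, adjusted p = 0.00663). Of the collapsin response mediators, which relay semaphorin signals to microtubules, Crmp1 rose in the cochlea by 0.76 (adjusted p = 0.0279) and Dpysl4 in the vestibule by 0.69 (adjusted p = 0.0231). Those calls were kept in 3 and 1 of 6 such fits. In the cochlea Dpysl4 lay lower in all mutants, at 49.3, 55.4 and 67.6 CPM against 32.6, 39.1 and 48.3 CPM (-0.52, adjusted p = 0.148, block 0.00419). Vestibular Crmp1 differed by 0.28 (adjusted p = 0.568, block 0.0409), with overlapping groups.

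Of the 20 cytoskeletal effectors Gap43, Stmn2 and Basp1 rose in the cochlea and Pak3 fell. Gap43, which encodes a growth cone protein of neurons, went from 9.91, 13.7 and 12.1 CPM to 81.7, 182 and 90.7 CPM (3.13, SE 0.25, adjusted p = 7.15e-06), with mutant replicate 2 the highest. Stmn2, a neuronal microtubule regulator, rose by 2.13 (adjusted p = 0.000484) and Basp1, another growth cone protein, by 1.12 (adjusted p = 0.000310). In the vestibule Gap43 differed by 0.73 (adjusted p = 0.146, block 0.0180), Basp1 by 0.02 and Stmn2 by -0.04. The cochlear sums of ganglion neuron markers were higher in the same mutants, at 2504 to 2598 CPM, and their part in these rises was not tested. Pak3, a kinase downstream of Rac and Cdc42, fell from 637, 487 and 542 CPM to 247, 237 and 243 CPM (-1.18, adjusted p = 8.66e-05). Of the ephrin partners, Efs fell in the cochlea by 0.80 on the log2 scale (adjusted p = 0.0362, kept in 1 of 6 fits) and Chn2, a Rac-inactivating chimaerin, rose in the vestibule by 1.42 (adjusted p = 0.000810). The level of Chn2 is uncertain, as 10.6% of its exon bases are shared with other annotated genes.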

How the data were processed

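The deposited values were CPM, read counts that the authors scaled to each library's total, 1 table a library, per the file headers. The submitters' processing notes name TopHat and GRCm38. No tool, strand setting or annotation for counting is named in the sources used here. All values (100%) were whole multiples of 1 read within 1e-06, so read counts were recovered. Within each organ genes with at least 1 CPM in 3 of 6 libraries were fitted with limma 3.58.1 (trend, R 4.3.3) on log2(CPM + 1), with a pseudocount of 1, which understates the changes of low genes, and p-values were adjusted by Benjamini-Hochberg over all tested genes. Differences between organs were an interaction term fitted over 12 libraries. Genes were called at adjusted p under 0.05.

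Libraries of the 2 genotypes share replicate numbers. Deviations of same-numbered libraries from their group means correlated at 0.23, 0.23 and 0.42 in the cochlea and 0.77, 0.51 and 0.60 in the vestibule, over all tested genes. Each exceeded 0.1, the minimum set for reading the numbers as pairs. In the vestibule some differently numbered libraries exceeded it too, so this minimum does not single out equal numbers there. Heterozygote replicate 2 correlated with mutant replicate 3 at 0.32, and heterozygote replicate 3 with mutant replicate 2 at 0.22. All other differently numbered pairs stayed below the minimum. The labels state no shared litter or day. Calls come from the fit without the block, and where the block changes a call this is given as a value for genes described singly or as a count for the others. Per the series' design text the triplicates were independent.

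As alternatives the pseudocount was 0.25 or 4, the filter absent or 5 CPM, and the rest were median-of-ratios and quantile scaling, edgeR 4.0.16 on recovered reads, the block, and leaving out libraries. Coordinates and exon lengths came from GENCODE on GRCm38. The members, pathway lists, marker lists and alternatives were chosen with earlier results of these data known. Named were Sema7a, all called members, the member with the smallest p in families without a call, the 4 highest levels per organ and up to 4 called genes per pathway list. A pathway gene that the rule takes is not reported here. Members named beyond that rule, such as block-only calls and receptors of called ligands, were chosen after their values were seen. The scripts were tested on simulated data. Figures were drawn with matplotlib 3.10.9.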

Additional observations from a re-analysis of the deposited data

Results flagged for a closer look

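The changes of 5 members differed between the organs by the interaction test. Sema3c differed by 1.83 on the log2 scale, cochlear minus vestibular change, with the 3 cochlear mutants higher and the 3 vestibular mutants lower than their heterozygotes. Robo1 differed by -1.59, with a rise in the vestibule and overlapping groups in the cochlea. Unc5a differed by -1.68, with a fall in the cochlea and overlapping groups in the vestibule. Ntn4 differed by 1.35 and Sema3e by -0.92. The last 2 kept their calls in 2 of 12 fits without a single library, with adjusted p up to 0.127 and 0.120, and edgeR on recovered reads gave 0.0665 for Ntn4. Organ and library kit cannot be told apart in these differences.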

How the results depend on the processing

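The cochlear count of 10 members ranged from 5 to 10 when single libraries were left out. Heterozygote replicate 2 and mutant replicate 2 each gave 5, and heterozygote replicate 1, mutant replicate 1 and mutant replicate 3 each gave 6. The vestibular count of 3 was 5 under quantile normalization (3 higher, 2 lower), 31 with the replicate block, 10 without both replicate 1 libraries, 2 to 5 without single libraries, and 2 without heterozygote replicate 3, mutant replicate 2 or mutant replicate 3. It was 5 without heterozygote replicate 1. The difference between organs, 5 members, became 3 with no filter, 8 with median-of-ratios rescaling (2 positive, 6 negative), 28 with the replicate block, and 3 to 6 without single libraries. It was 3 without cochlear heterozygote replicate 2, cochlear mutant replicates 1 or 3, or vestibular mutant replicates 2 or 3. Quantile scaling gave it 1 positive and 6 negative. With the replicate block the cochlear calls in the pathway lists went from 11 to 20 and the vestibular ones from 8 to 39, and without single libraries they were 8 to 12 and 3 to 7. Vestibular mutant replicates 2 and 3 each gave 3, and heterozygote replicate 2 and mutant replicate 1 each gave 5. Leaving out libraries both lowered and raised counts, and the cause of these shifts was not tested.

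For single genes 1040 alternatives kept the direction and side of the threshold, 37 newly passed, 96 no longer passed and 9 changed sign. All 9 were uncalled cochlear values near 0. Without single libraries Efnb3 ranged from -0.000705 to 0.34, Ephb4 from -0.28 to 0.000413, Robo1 from -0.0167 to 0.11 and Slit3 from -0.14 to 0.0738. Leaving out both cochlear replicate 3 libraries gave -0.00369 for Efnb3, and edgeR gave -0.00855 for Robo1.

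Depth limits the members at low levels: a level of 1 CPM is under 10 reads in the cochlea, and values for Robo3, Epha6 and Ntn5 rest on few reads.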
